A study of Homo sapiens with 8 samples.

Results

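The enzymes that write, maintain and remove methyl groups on cytosine were followed at the transcript level in 2 human acute lymphoblastic leukaemia (ALL) lines, SUP-B8 and NALM-6. The members were DNMT1, UHRF1, DNMT3A, DNMT3B, TET1, TET2 and TET3. They were chosen by symbol alone: every probe set whose only gene symbol in the platform annotation was 1 of these 7 genes was taken, which gave 14 of the 54675 probe sets on the array. A probe set is a group of short oligonucleotides that reports 1 or more transcripts of a gene. No probe set named a member together with another gene.

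Each line was kept for 72 h in DMSO alone, the vehicle, or in 0.5 uM GSK126, an inhibitor of EZH2. EZH2 is the enzyme of the Polycomb complex PRC2 and puts the silencing mark H3K27me3 on histones. The 4 groups therefore were SUP-B8 with DMSO, SUP-B8 with GSK126, NALM-6 with DMSO and NALM-6 with GSK126, each with 2 biological replicates per the labels. Total RNA was hybridised to Affymetrix expression arrays, and all values are the deposited log2 values, in which a difference of 1 is a doubling. The labels describe cancer cell lines and give no genotype, so the state of EZH2 or of any member in either line is not stated here. Nothing in the labels says how the replicate cultures were set up.

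DNMT1 copies methylation onto the newly made strand after replication, and UHRF1 recognises half-methylated DNA and recruits DNMT1 to it. DNMT3A and DNMT3B place methyl groups on unmethylated sites, and TET1, TET2 and TET3 oxidise the methyl group as the first step of its removal. In leukaemias DNMT3A and TET2 are known as mutated genes, and DNA methylation and Polycomb repression are known as separate silencing systems that often mark different genes. The arrays measured RNA only, so neither DNA methylation nor enzyme activity was measured.

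RefSeq promoter windows (build GRCh38.p14) were found for 7 of the 7 member genes, 18 windows in all because several genes have more than 1 start. The window of DNMT1 and the first of UHRF1 are shown because these maintenance partners are known as genes of the S phase, and both windows hold the letters TTTCGCG or their reverse complement CGCGAAA, a core of sites known for E2F factors. A pair of DNMT3A windows is shown because DNMT3A has an outer and an inner group of starts and its probe sets went different ways between the lines. The DNMT3B window, the only one matched for that gene, lies within the gene, which begins at chr20:32762385, and is shown as the member window with the fewest CpG dinucleotides. The region before the outer start of DNMT3B was not analysed here. Each line gives 250 bases before the start and 10 bases after it, 5′ to 3′ on the strand of the gene, with the searched letters in capitals.
DNMT1, chr19:10194944-10195203, minus strand: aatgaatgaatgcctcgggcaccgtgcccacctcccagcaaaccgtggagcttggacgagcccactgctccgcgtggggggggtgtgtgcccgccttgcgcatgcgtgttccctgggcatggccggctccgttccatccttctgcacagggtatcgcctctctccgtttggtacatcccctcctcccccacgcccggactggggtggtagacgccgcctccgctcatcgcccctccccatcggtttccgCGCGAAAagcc
UHRF1, chr19:4909251-4909510, plus strand: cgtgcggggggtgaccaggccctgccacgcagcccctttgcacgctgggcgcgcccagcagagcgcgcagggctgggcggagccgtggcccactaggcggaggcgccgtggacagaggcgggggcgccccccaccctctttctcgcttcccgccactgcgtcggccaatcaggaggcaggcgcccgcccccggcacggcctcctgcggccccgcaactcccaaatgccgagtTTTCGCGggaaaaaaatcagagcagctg
DNMT3A, outer, chr2:25342581-25342840, minus strand: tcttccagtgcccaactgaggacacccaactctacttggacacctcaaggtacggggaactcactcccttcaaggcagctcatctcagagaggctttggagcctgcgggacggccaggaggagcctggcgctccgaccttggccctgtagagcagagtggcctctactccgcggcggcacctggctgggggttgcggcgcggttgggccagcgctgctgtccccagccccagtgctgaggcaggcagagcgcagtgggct
DNMT3A, inner, chr2:25252306-25252565, minus strand: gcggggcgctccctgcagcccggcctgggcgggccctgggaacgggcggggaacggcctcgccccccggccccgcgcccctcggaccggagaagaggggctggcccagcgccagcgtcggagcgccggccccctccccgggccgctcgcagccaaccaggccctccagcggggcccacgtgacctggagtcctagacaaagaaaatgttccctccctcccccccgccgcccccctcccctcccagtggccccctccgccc
DNMT3B, inner, chr20:32779602-32779861, plus strand: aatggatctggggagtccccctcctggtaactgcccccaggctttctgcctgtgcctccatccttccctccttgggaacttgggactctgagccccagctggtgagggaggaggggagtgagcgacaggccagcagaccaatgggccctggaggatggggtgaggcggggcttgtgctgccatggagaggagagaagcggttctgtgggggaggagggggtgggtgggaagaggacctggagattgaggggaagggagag
The letters were searched on both strands of all 300 bases of each window, 250 before and 50 after the start, and were chosen after the sequences had been seen. They occurred in 3 of the 18 member windows, those of DNMT1 and the first and second windows of UHRF1, and in 463 of the 35116 windows of all genes, or 1.32%. In DNMT1 the match lay on the reverse strand and began 1 base before the start. In the first and second UHRF1 windows it lay on the strand of the gene and began 18 and 160 bases before the start. Within the printed 260 bases, DNMT1 had 23 CpG dinucleotides, and the UHRF1 windows had 28, 34 and 42. The outer DNMT3A windows had 13, 22 and 37 and the inner ones 26, 22 and 16. The DNMT3B window within the gene had 3, a count that 28.4% of all windows did not exceed, where the median window had 11.0. The TET windows ranged from 4 in a TET1 window to 39 in a TET3 window. These matches are a description of letters, and which start the cells used was not measured.

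The arrays were alike in overall distribution, with medians over all probe sets between 7.18 and 7.24. Pearson correlations over probe sets were 0.9977 to 0.9982 between replicates, 0.9899 to 0.9975 between treatments of a line and 0.9203 to 0.9289 between lines. B-lineage transcripts CD79A, CD79B, CD22, PAX5, EBF1 and BLNK lay above the array medians on all 8 arrays, and none of 5 myeloid markers did on any array. CD37, also a B-lineage marker, lay below the medians on every SUP-B8 array (group means 5.89 with DMSO and 5.74 with GSK126). It lay above them on every NALM-6 array (12.23 and 12.28). The early B markers DNTT, VPREB1, IGLL1, RAG1 and RAG2 all lay above the medians on every array labelled SUP-B8 and below them on every array labelled NALM-6. DNTT, the terminal transferase of lymphoid precursors, averaged 13.67 in SUP-B8 with DMSO and 6.86 ± 0.04 (SD, n = 2) in NALM-6 with DMSO. NALM-6 is usually described as a precursor line that makes this enzyme, so the groups are called here by their labels. The T-cell genes CD3D and CD3E, the erythroid genes HBB and AHSP and the fibroblast genes COL1A1 and DCN also lay above the medians on all 8 arrays. The other T-cell and fibroblast markers did on no array. Lying above the array median therefore does not by itself show expression, since COL1A1 had group means of 9.45 to 9.58.

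Dim probe sets, those above the median of all probe sets on fewer than 2 of the 8 arrays, were left out, which kept 30199 probe sets and 11 of the 14 of the members. Every member gene kept at least 1 probe set. Differences were tested with limma across all 30199, with p-values adjusted by the Benjamini-Hochberg method over all of them, and 0.05 was the threshold for a call. An exact permutation test of a single probe set cannot give a p below 0.333 with so few arrays, so every call rests on the spread that limma pools across probe sets. In such bulk RNA, fewer cells of a kind and less RNA per cell cannot be told apart.

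**Figure D1:**
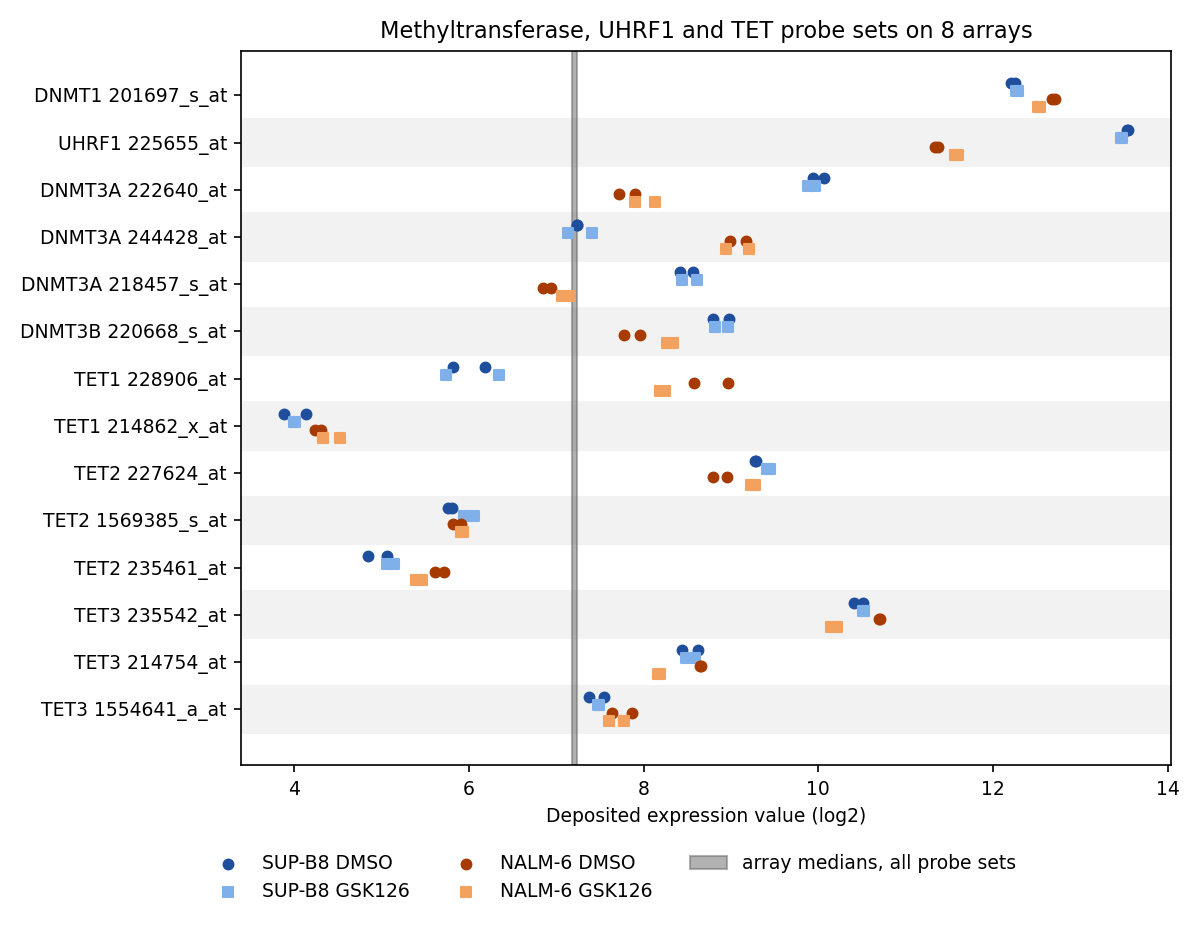
Deposited log2 value (horizontal axis) of each of the 14 member probe sets (rows) on all 8 arrays; circles are DMSO, squares GSK126, blue SUP-B8 and orange NALM-6, and the grey band spans the medians of the arrays. The UHRF1 probe set separates the lines most cleanly, with 13.46 to 13.55 on the SUP-B8 arrays and 11.33 to 11.60 on the NALM-6 arrays, while the 3 dim probe sets of TET1 and TET2 lie below the band on every array.

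The lines differed in most of these transcripts more than the treatments did. The median size of a member difference was 1.01 between the lines under DMSO, 0.23 for GSK126 in NALM-6 and 0.04 in SUP-B8. TET3 by 235542_at and 214754_at was the exception. Its GSK126 differences in NALM-6 (-0.52 and -0.47) were larger in size than its line differences under DMSO (-0.25 and -0.12). Under DMSO, 10 of the 11 tested member probe sets differed between SUP-B8 and NALM-6, 5 higher and 5 lower in SUP-B8, and all 7 genes had at least 1 that did. The background was high: 67.8% of all probe sets tested were called in this comparison, 35.9% higher and 31.9% lower. The arrays of the lines did not overlap for 11 of 11 member probe sets, against 81.6% of all. A TET1 probe set and a DNMT3A probe set had passed the filter through 1 line alone and so had to differ. Of the other 9, 8 were called.

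UHRF1 was the member with the clearest line difference. Its probe set 225655_at read 13.53 and 13.55 in SUP-B8 with DMSO and 11.33 and 11.37 in NALM-6 with DMSO. SUP-B8 was higher by 2.19 ± 0.05 in log2 units (SE), a 4.56-fold level, with an adjusted p of 4.56e-09 in limma. The replicates of each line lay within a few hundredths of each other.

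DNMT1 went the other way and by less. Probe set 201697_s_at read 12.25 and 12.21 in SUP-B8 with DMSO and 12.67 and 12.71 in NALM-6 with DMSO. The SUP-B8 level was 0.729-fold of that in NALM-6, a log2 difference of -0.46 ± 0.05 (SE, adjusted p 5.72e-05, limma). The maintenance enzyme and the protein that recruits it thus stood in opposite order across the lines, with no overlap of the arrays for either.

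DNMT3A gave no single answer, because its 3 probe sets disagreed. With 222640_at, SUP-B8 read 9.94 and 10.06 under DMSO and NALM-6 read 7.90 and 7.72, a difference of 2.19 ± 0.09 (SE, adjusted p 1.45e-07, limma). With 218457_s_at, SUP-B8 read 8.57 and 8.42, and NALM-6 read 6.85 and 6.94, below the array medians. That group was not shown to be above background, so SUP-B8 was higher by at least 1.30 on the log2 scale (measured 1.60, adjusted p 3.33e-07), the distance to the medians.
The third probe set, 244428_at, ran the opposite way. It read 7.24 on both SUP-B8 arrays, near the medians, and 8.99 and 9.17 in NALM-6 with DMSO, a difference of -1.84 ± 0.11 (SE, adjusted p 1.36e-06, limma). The mean of the 3 was higher in SUP-B8 by 0.65. Which transcripts each probe set reports was not examined here.

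DNMT3B, the other de novo enzyme, was measured by 1 probe set. It read 8.79 and 8.98 in SUP-B8 with DMSO and 7.96 and 7.78 in NALM-6 with DMSO. Its level in SUP-B8 was 2.01-fold that in NALM-6, a difference of 1.01 ± 0.09 (SE, adjusted p 1.33e-05, limma).

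TET1 was brighter in NALM-6. Probe set 228906_at read 6.19 and 5.82 in SUP-B8 with DMSO, below the array medians, and 8.58 and 8.97 in NALM-6 with DMSO. SUP-B8 was lower by at least 1.57 on the log2 scale, counted to the medians (measured -2.77, adjusted p 4.24e-06, limma). Its second probe set, 214862_x_at, of a kind that can bind unrelated transcripts, lay between 3.88 and 4.53 on all 8 arrays and was not tested.

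TET2 and TET3 differed between the lines by fractions of a log2 unit. TET2 probe set 227624_at read 9.29 and 9.27 in SUP-B8 and 8.80 and 8.96 in NALM-6 under DMSO, a difference of 0.40 ± 0.06 (SE, adjusted p 5.83e-04, limma). The dim TET2 probe sets 1569385_s_at (5.76 to 6.06) and 235461_at (4.84 to 5.72) lay below the medians on every array and were not tested. TET3 was lower in SUP-B8 by 2 of its 3 probe sets, with -0.25 for 235542_at (adjusted p 0.00422) and -0.30 for 1554641_a_at (adjusted p 0.025, limma). The third, 214754_at, differed by -0.12 and was not called (adjusted p 0.163). The call of 1554641_a_at was lost without SUP-B8 DMSO replicate 2 (adjusted p 0.157) or NALM-6 DMSO replicate 1 (adjusted p 0.166), and that of 214754_at was gained without SUP-B8 DMSO replicate 2 (-0.22, adjusted p 0.0316).

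**Figure D2:**
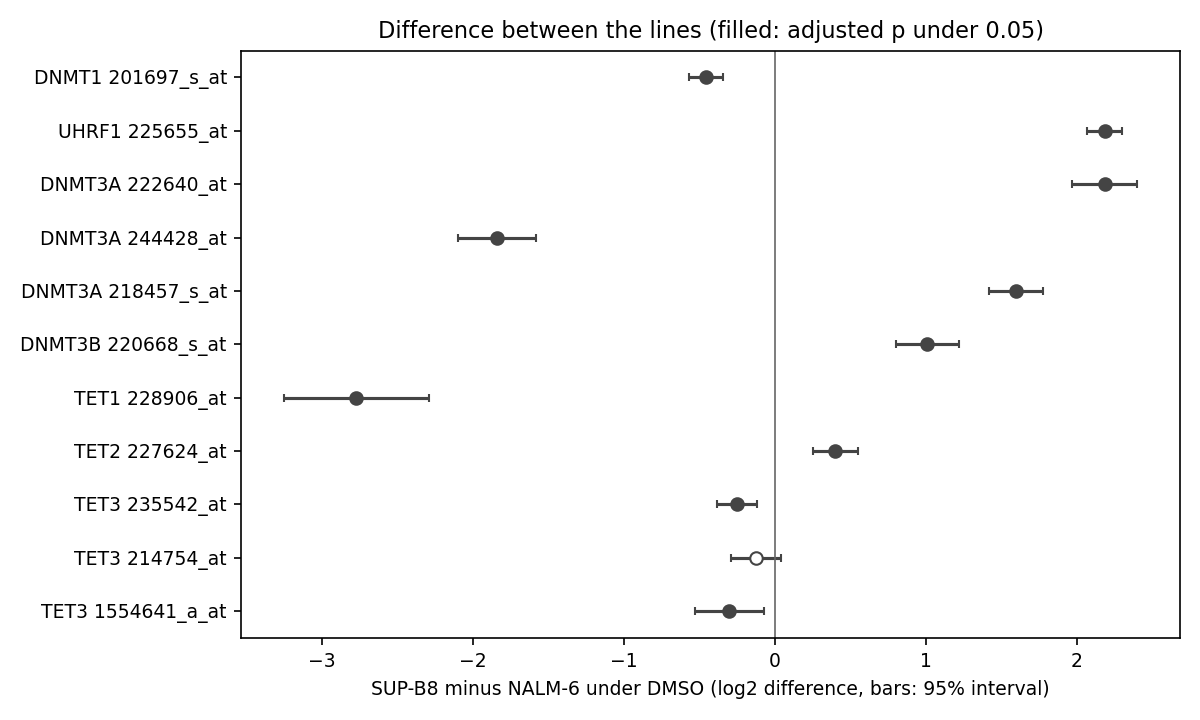
Difference between the lines under DMSO, SUP-B8 minus NALM-6, in log2 units (horizontal axis) for the 11 tested member probe sets (rows), with bars for the 95% interval from limma; filled points have an adjusted p under 0.05. UHRF1 and the 222640_at probe set of DNMT3A both stand at 2.19, the 244428_at probe set of DNMT3A at -1.84, and TET1, whose SUP-B8 arrays lay below the medians, at a measured -2.77.

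In SUP-B8, no member probe set was called after GSK126. The count was 0 of 11 in limma, and 0 of 11 also had an unadjusted p under 0.05, where 350 of all 30199 probe sets, 1.16%, were called and 4639 had an unadjusted p under 0.05. Without any 1 of the 4 SUP-B8 arrays the total called fell to between 30 and 111, so this contrast gave few calls for any gene. The members' differences ran from -0.08 to 0.15. The median size of a difference was 0.04 for the members and 0.07 for all probe sets tested. The groups did not overlap for 4 of 11, against 47.7% of all.

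Intervals show how much change these arrays could have missed. For DNMT1 the values were 12.25 and 12.21 with DMSO and 12.29 and 12.26 with GSK126, a difference of 0.04 with a 95% interval of -0.08 to 0.16. UHRF1 read 13.48 and 13.46 with GSK126, a difference of -0.07 (interval -0.19 to 0.05). DNMT3B differed by 0.01 (-0.19 to 0.22), and the 222640_at probe set of DNMT3A by -0.08 (-0.29 to 0.14). TET3 differed by 0.06 (-0.07 to 0.19) with 235542_at and by 0.01 (-0.16 to 0.17) with 214754_at. TET2 had the largest difference, 9.45 and 9.41 with GSK126 against 9.29 and 9.27, or 0.15 ± 0.06 (SE, adjusted p 0.329, limma). TET1 lay below the array medians in both SUP-B8 groups, so no size is given for it.

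In NALM-6, GSK126 changed 5 of the 7 member genes, by 6 of 11 probe sets. DNMT3B, TET2 and UHRF1 rose, and TET3 and DNMT1 fell, all by less than a factor of 1.5. The 6 calls, 3 higher and 3 lower, were 54.5% of the probe sets tested, against a background of 39.3%, of which 19.2% higher and 20% lower. The groups did not overlap for 8 of 11, against 69.5% of all probe sets.

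TET3 had the largest called change, and a pair of its probe sets moved together. Probe set 235542_at read 10.70 and 10.71 with DMSO and 10.15 and 10.21 with GSK126, so that the treated level was 0.695-fold, a difference of -0.52 ± 0.06 (SE, adjusted p 2.18e-04, limma). Probe set 214754_at read 8.65 and 8.66 with DMSO and 8.17 and 8.19 with GSK126, or -0.47 ± 0.07 (adjusted p 0.00131). The third probe set, 1554641_a_at, read 7.87 and 7.64 with DMSO and 7.78 and 7.60 with GSK126, overlapped, and was not called (-0.07, adjusted p 0.624). The first pair kept its calls without any 1 of the 8 arrays.

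DNMT3B rose after GSK126. It read 7.96 and 7.78 with DMSO and 8.34 and 8.27 with GSK126, a 1.35-fold level and a difference of 0.43 ± 0.09 (SE, adjusted p 0.00616, limma). The treated NALM-6 arrays still lay below all 4 SUP-B8 arrays, which read 8.79 to 8.98. TET2 rose as well, from 8.80 and 8.96 to 9.23 and 9.27 with 227624_at, by 0.37 ± 0.06 (adjusted p 0.00267), beside 9.29 and 9.27 in SUP-B8 with DMSO. Both calls held without any 1 of the 8 arrays.

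The maintenance pair moved in opposite directions by small amounts. UHRF1 rose from 11.33 and 11.37 to 11.57 and 11.60, by 0.23 ± 0.05 (SE, adjusted p 0.0074, limma), a 1.17-fold level. That call was lost without NALM-6 GSK126 replicate 2 (adjusted p 0.0545). DNMT1 fell from 12.67 and 12.71 to 12.51 and 12.54, a difference of -0.17 ± 0.05 (adjusted p 0.0322). The DNMT1 call was the least firm of the 6: with any 1 array left out other than the SUP-B8 DMSO arrays the adjusted p was 0.0539 to 0.15, with the 4 NALM-6 arrays alone it was 0.0631, and with all probe sets tested it was 0.093.

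DNMT3A and TET1 were not called in NALM-6. DNMT3A read 7.90 and 7.72 with DMSO and 7.90 and 8.13 with GSK126 by 222640_at, a difference of 0.20 (interval -0.02 to 0.42, adjusted p 0.132, limma), which was called without NALM-6 GSK126 replicate 1 (0.32, adjusted p 0.0467). By 244428_at it read 8.99 and 9.17 against 8.94 and 9.21, with overlapping arrays (adjusted p 0.992). By 218457_s_at both NALM-6 groups lay below the array medians (adjusted p 0.0651). TET1 read 8.58 and 8.97 with DMSO and 8.24 and 8.19 with GSK126. Its difference of -0.56 ± 0.21 (SE, interval -1.04 to -0.08) was the largest in size among the members, did not overlap and missed the threshold (adjusted p 0.0642). It passed with arrays centred on their medians (-0.59, adjusted p 0.0319), with the 4 NALM-6 arrays alone (adjusted p 0.012), and without SUP-B8 GSK126 replicate 1 or replicate 2 (adjusted p 0.0197 each).

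**Figure D3:**
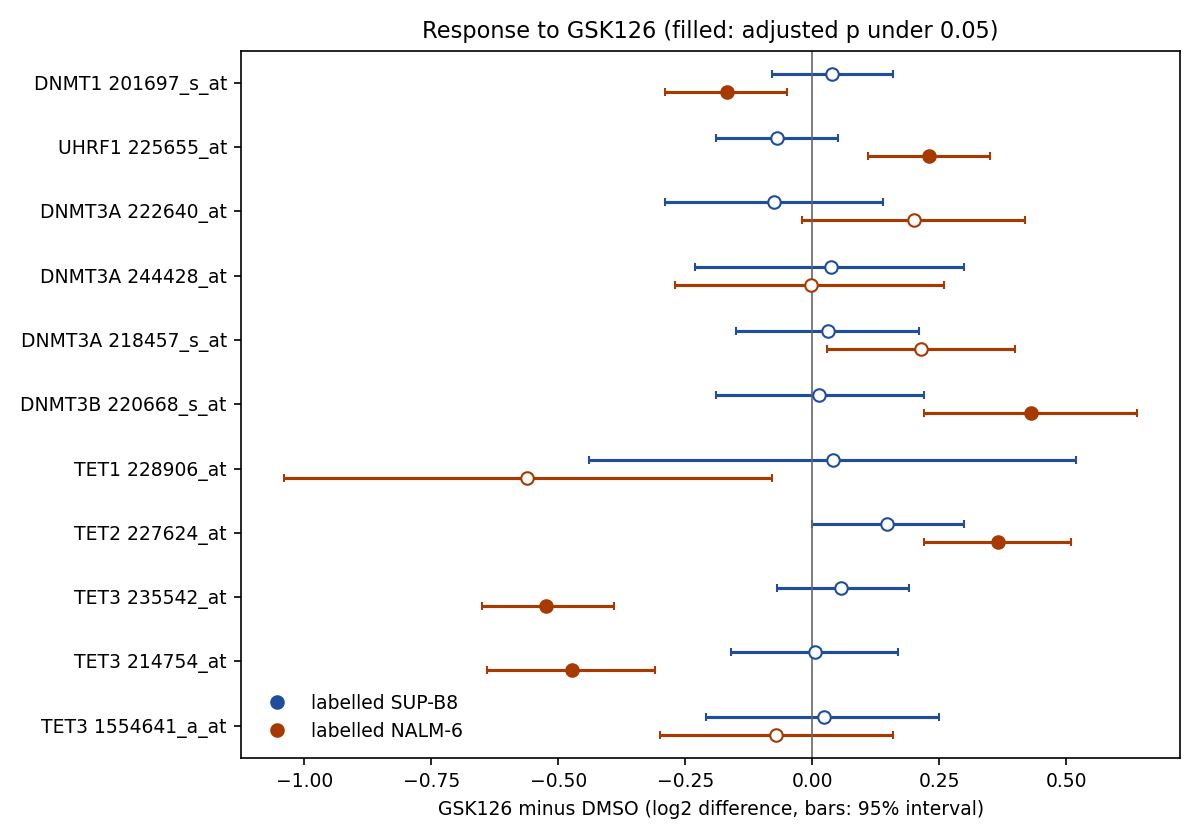
Response to GSK126, treated minus DMSO in log2 units (horizontal axis), for the 11 tested member probe sets (rows) in the arrays labelled SUP-B8 (blue) and NALM-6 (orange), with bars for the 95% interval from limma; filled points have an adjusted p under 0.05. No SUP-B8 point is filled, and the 6 filled NALM-6 points are UHRF1, DNMT3B and TET2 to the right of 0 and DNMT1 and the first and second TET3 probe sets to the left; the SUP-B8 point of TET1 comes from arrays below their medians and gives no size.

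Whether the lines responded differently was tested directly, as the response in SUP-B8 minus that in NALM-6. It was called for 4 of 11 member probe sets, 36.4%, against 24.5% of all probe sets tested (11.9% higher and 12.6% lower). The difference was 0.58 ± 0.08 for TET3 by 235542_at (SE, adjusted p 0.00172, limma) and 0.48 ± 0.10 by 214754_at (adjusted p 0.0118). It was -0.42 ± 0.13 for DNMT3B (adjusted p 0.0475) and -0.30 ± 0.07 for UHRF1 (adjusted p 0.018). The TET3 differences held without any 1 array, whereas the DNMT3B and UHRF1 calls were each lost in several such fits. The difference was not called for DNMT1 (0.21, adjusted p 0.0751) or TET2 (-0.22, adjusted p 0.124), nor for TET1 or any DNMT3A probe set. For DNMT1 and TET2, therefore, a response called in NALM-6 alone was not shown to differ from that in SUP-B8. TET2 was called without NALM-6 DMSO replicate 2 (-0.30, adjusted p 0.0418). No size is given for TET1, since it lay below the array medians in both SUP-B8 groups.

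Other genes of the methylation pathway were taken from 9 lists with 114 genes tested, each gene by its probe set with the highest mean, in a fit over 13161 genes. In NALM-6, GSK126 changed 48 of the 114, 20 higher and 28 lower, or 42.1%, against 39.3% of all genes tested (20.8% higher and 18.5% lower). In SUP-B8 it changed 0 of 114 in limma, against 2.25% of all genes called. An unadjusted p under 0.05 was found there for 9 of the 114, against 2198 of all 13161 genes. The response differed between the lines for 29 of 114, against 25.4% of all (10.9% higher and 14.5% lower). Under DMSO the lines differed in 92, 80.7%, against 68.3% of all (37.8% higher and 30.6% lower). The pathway's share in NALM-6 therefore stood near that of all genes. These counts rest on 1 probe set a gene, and 74 of the genes had another that was tested. In NALM-6, another probe set was called for 15 of the 74 where the chosen one was not, and MBD1 and OGT had called probe sets of opposite sign. In SUP-B8, MAT2B was called lower with 229284_at (-0.46, adjusted p 0.0327, limma) and CXXC5 higher with 233955_x_at (0.31, adjusted p 0.0453), while the chosen probe sets were not called.

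The genes that act after TET oxidation, in removal of modified cytosine and base excision repair, were called lower more often than higher in NALM-6. By the chosen probe sets, 7 of 15 fell and 2 rose there, with a median of -0.08 against 0.02 for all genes. The share of all genes tested that was called there was 39.3%, with 18.5% lower and 20.8% higher. APEX2, not called with the chosen probe set, rose by 0.46 with 238813_at (adjusted p 0.0012, limma). GADD45B, a stress gene linked to active demethylation, fell from a mean of 12.14 to 10.52, a log2 difference of -1.61 ± 0.11 (SE, adjusted p 1.6e-05, limma), and its 3 other probe sets fell too. NEIL2, a DNA glycosylase, fell by 0.83, LIG3, a DNA ligase, by 0.41, and OGG1, which removes oxidised guanine, by 0.30. Other LIG3 probe sets differed by -0.46 to 0.04, and 1554597_at and 1554599_x_at (both -0.04) were not called. By the chosen probe sets, the responses of these 4 differed between the lines, by 1.60 for GADD45B, 0.73 for NEIL2, 0.48 for LIG3 and 0.41 for OGG1. TDG, the glycosylase that excises the bases TET enzymes produce, was not called in NALM-6 (0.14, adjusted p 0.093). Its response differed between the lines by -0.28 with the chosen probe set (adjusted p 0.0338, limma). With 203742_s_at that difference was not called (-0.08, adjusted p 0.762). Between the lines TDG was higher in SUP-B8 by 1.35, while GADD45B (-3.17), NEIL3 (-2.34) and OGG1 (-1.98) were lower.

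MAT2A, IDH1 and IDH2, which supply cofactors, rose in NALM-6 by the chosen probe sets. Of all genes tested there, 39.3% were called, 20.8% higher and 18.5% lower. By the chosen probe sets, of 12 genes of the methyl donor cycle, 3 rose and 0 fell in NALM-6 (median 0.02). MAT2A, which makes S-adenosylmethionine, the methyl donor of the DNMT enzymes, rose by 0.66 ± 0.07 (SE, adjusted p 1.8e-04, limma), and AHCYL2 by 0.23 and AHCYL1 by 0.21. Other probe sets of this list were called as well: MTR, methionine synthase, rose by 0.61 with 226969_at (adjusted p 0.000963) but not with the chosen one (-0.04), and MAT2B fell by 0.27 with 229284_at (adjusted p 0.0196). MAT2A differed in response between the lines (-0.72) and was higher in SUP-B8 under DMSO by 1.92, where CBS, which leads homocysteine out of the cycle, was lower by 2.75 (log2 difference -2.75). Of 9 genes that supply or consume alpha-ketoglutarate, the cofactor of TET enzymes, 2 rose and 1 fell. IDH1 rose by 0.52 and IDH2 by 0.33, and OGDH fell by 0.18, and by 0.41 with 1554151_at. The other probe sets of IDH1 differed by 0.50 and -0.32. IDH3B, not called with the chosen probe set, fell by 0.28 with 201509_at (adjusted p 0.00432) and by 0.19 with 210418_s_at. With the chosen probe sets, the response differed between the lines by -0.69 for IDH1 and by -0.32 for IDH2. Under DMSO IDH1 was higher in SUP-B8 by 1.24.

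Proteins that bind the members moved both ways. Among 21 partners of the DNMT enzymes and UHRF1, 3 rose and 8 fell in NALM-6 (median -0.03). The share of all genes tested that was called there was 39.3%, with 20.8% higher and 18.5% lower. UHRF2, the relative of UHRF1, fell by 0.57 (adjusted p 5.14e-05, limma), opposite in sign to UHRF1, and the lines differed in that response by 0.58. SETD7, a lysine methyltransferase that acts on DNMT1, rose by 0.48, and HDAC1 fell by 0.39 and NSD2 by 0.37. HELLS, a chromatin remodeller needed for DNA methylation, was not called with the chosen probe set (-0.07) but rose by 0.51, 0.44 and 0.39 with 220085_at, 227349_at and 227350_at. Under DMSO SETD7 was higher in SUP-B8 by 1.12 and UHRF2 lower (-0.92). Among 10 partners of the TET enzymes, 2 rose and 2 fell, a share near that of all genes. DCAF1, a ubiquitin ligase subunit that modifies TET proteins, fell by 0.68 with the chosen probe set, and KDM2B, a CpG-binding Polycomb partner, by 0.52. The other probe sets of DCAF1 differed by -0.71, -0.17, -0.11 and 0.01. CXXC5 rose by 0.46 with the chosen probe set and by 0.41 with each of its other probe sets. OGT rose by 0.20 with the chosen probe set, but another, 207564_x_at, fell by 0.18, so its direction is uncertain. Under DMSO DCAF1 was higher in SUP-B8 by 0.60, whereas its probe set 204377_s_at was lower (-0.31).

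Readers of methylated DNA gave 2 higher and 1 lower of 8 in NALM-6 by the chosen probe sets, with a median of 0.11. Among all genes, 39.3% were called there, 20.8% higher and 18.5% lower. MBD5 rose by 0.25 and MBD2 fell by 0.18. MBD6 rose by 0.36 with another probe set, 227832_at (adjusted p 0.0169, limma). ZBTB4 was called higher with 225629_s_at (adjusted p 0.0171) and ZBTB33 lower with 214631_at (adjusted p 0.0305). Both lay below the medians on all NALM-6 arrays, so no size is given. MBD1 rose by 0.30 with the chosen probe set and fell by 0.55 with 226862_at (adjusted p 3.43e-04, limma), so no direction is given for the gene. Germline genes that are known to be kept silent by promoter methylation stayed dim: 16 of the 20 with a probe set, DAZL, DDX4 and MAGEA1 among them, lay below the median on all 8 arrays. Of the 3 that passed the filter, 0 were called after GSK126 in either line. RPL10L, the brightest of these, read 7.84 in NALM-6 with DMSO and 7.91 with GSK126 (adjusted p 0.295, limma).

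Replication genes are given because DNMT1 and UHRF1 are known to rise in S phase. In NALM-6, 6 of 33 rose and 7 fell, with a median of -0.02. The share called was near that of all genes tested, 39.3% (20.8% higher and 18.5% lower). CCNE1, which drives entry into S phase, rose by 0.68, GINS4 by 0.53 and CDC6, a licensing factor, by 0.47, whereas the proliferation marker MKI67 fell by 0.43. The other probe set of CCNE1 differed by 0.03, and the other probe sets of GINS4 and MKI67 were not called. PCNA, the clamp that also tethers DNMT1, was not called (0.09, adjusted p 0.212, limma). Under DMSO 12 of 33 were higher and 14 lower in SUP-B8, with CCNE2 (1.90), GINS4 (1.11) and FEN1 (1.02) higher and RFC2 lower (-0.77). Among all genes, 68.3% were called in that comparison, 37.8% higher and 30.6% lower. The part of cell cycle in the UHRF1 and DNMT1 differences was not tested.

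Of the PRC2 core, SUZ12 and RBBP7 fell in NALM-6 by the chosen probe sets, and the probe sets of EED disagreed. EZH2, the target of GSK126, had group means between 11.20 and 11.22 and was called in none of the 4 comparisons. SUZ12 fell by 0.21 and RBBP7 by 0.17 in NALM-6, 2 of 6 genes, where 39.3% of all genes were called. The other SUZ12 probe sets differed by -0.07 and -0.03. EED, the subunit that binds H3K27me3, was not called with the chosen probe set (0.06, adjusted p 0.45, limma). With 210656_at it was called lower in NALM-6 (adjusted p 6.59e-06), from a mean of 7.97 with DMSO to 5.84 with GSK126, the latter below the array medians. That probe set lay below the medians on all 4 SUP-B8 arrays, with means of 5.47 and 5.57. EZH1, the relative of EZH2, likewise was not called with the chosen probe set (-0.05) and fell by 0.29 with 239198_at (adjusted p 0.0086). Under DMSO 4 of 6 were called, all lower in SUP-B8, among them RBBP7 (-0.60) and EED (-0.34). Of all genes, 68.3% were called in that comparison, 30.6% of them all as lower.

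**Figure D4:**
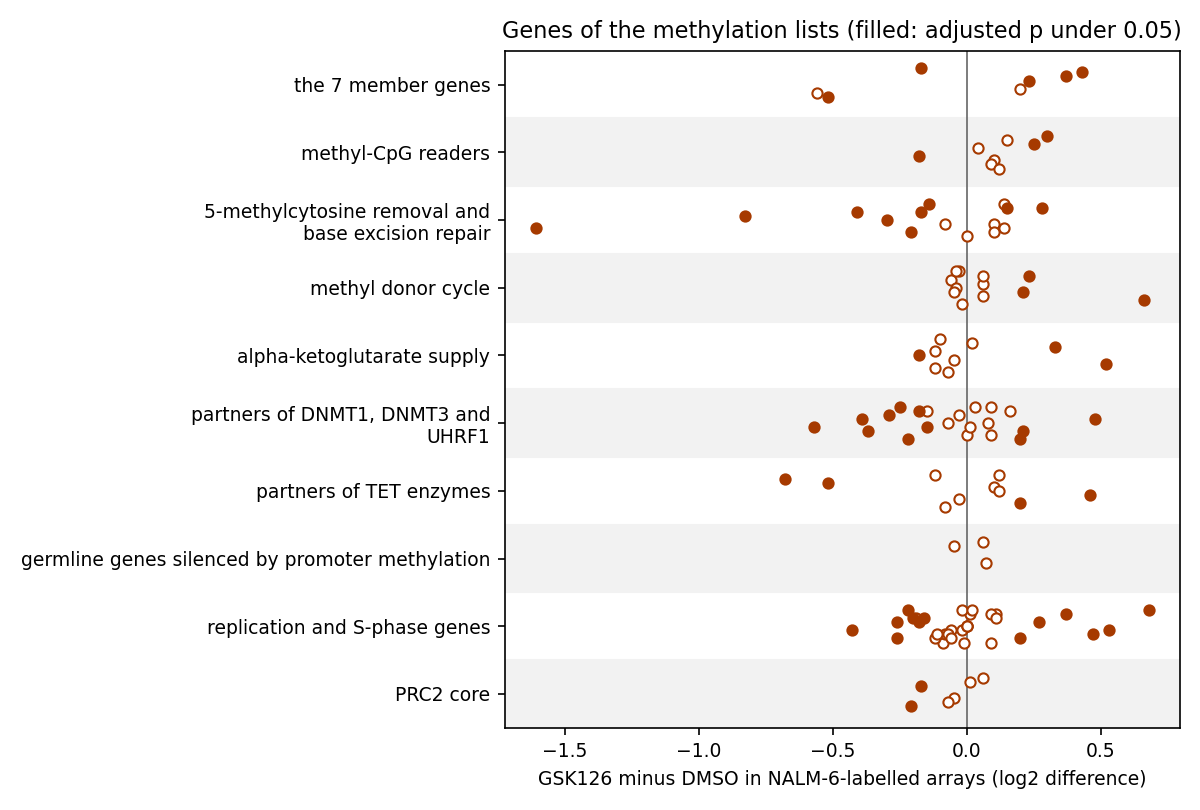
Response of NALM-6 to GSK126, treated minus DMSO in log2 units (horizontal axis), for the 7 member genes and each tested gene of the 9 lists (rows, 1 point a gene); filled points have an adjusted p under 0.05 in limma. Each gene is plotted by its chosen probe set, so other probe sets such as 210656_at of EED are not drawn. Most points lie within 0.5 of 0, and GADD45B at -1.61 and NEIL2 at -0.83 stand farthest out.

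The genes whose pattern over the 8 arrays lay nearest to that of a member were found by the root-mean-square difference between profiles, each centred on its own mean. For UHRF1 these were STK38 (0.048), NBDY (0.067) and TWNK (0.072), and 12 genes lay within 0.1. For DNMT3A by 222640_at the nearest of all tested genes was UHRF1 (0.082), followed by SH2D4B (0.096) and ENG (0.098). DNMT3B was nearest to SETMAR (0.057), COG8 (0.074) and OAF (0.074), and SETMAR likewise was higher after GSK126 in NALM-6, by 0.48, and differed by 0.02 in SUP-B8. TET3 was nearest to DHX35 (0.037), C6orf136 (0.044) and KIF18B (0.045), with NALM-6 differences of -0.57, -0.56 and -0.55. TET1 had no gene within 0.1, and the nearest were ZNF256 (0.181), STAG3 (0.182) and TSPAN33 (0.203). DNMT1, which spanned 0.50 over all arrays, had 680 genes within 0.1, led by PDS5B (0.032), SYF2 (0.033) and APPL1 (0.034). TET2 had 207, led by AKR7A2 (0.036), MTNAP1 (0.043) and DNASE1L1 (0.044), and TET3, which spanned 0.56, had 109. For these flat profiles nearness therefore singles out no particular gene. The similar differences of near genes, such as SETMAR and DHX35, follow from how they were picked. All these profiles share the same 8 arrays, and most are dominated by the difference between the lines. That of TET3 changed more with GSK126 in NALM-6 (-0.52) than between the lines under DMSO (-0.25). That of TET2 changed by similar amounts (0.37 and 0.40).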

How the data were processed

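Transcripts were measured on 8 Affymetrix arrays, 2 for each line and treatment, grouped by the titles in the labels. The deposited table holds log2 values for 54675 probe sets. Per the submitters' processing notes the tools were MAS5 and RMA; their role and version are not given in the sources used here. Array medians of 7.18 to 7.24 show values already normalized between arrays by the authors, which hides any shift common to most genes, and they were not transformed. The number of arrays limits the precision.

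Of the probe sets, 41097 had 1 symbol in the platform annotation, 1801 had several and 11777 were not listed there. Probe sets with at least 2 of 8 arrays above that array's median were tested, 30199 in all. Limma 3.58.1 in R 4.3.3 fitted 1 mean per group with 4 residual degrees of freedom and moderated variances, for 4 contrasts. Benjamini-Hochberg adjustment ran over all features of a fit, with calls under 0.05. The scripts were tested on simulated data. Errors are SE from the fit, or SD with n = 2. Where all arrays of a group lay below their medians, the difference is given as at least the distance to the medians. For the lists, each gene was represented by its single-symbol probe set with the highest mean, which gave 13161 genes. Python 3.11.15 prepared the promoter windows, which were matched by symbol to RefSeq.

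Every member probe set is named. From each list, up to 4 called genes with the largest difference in a contrast were eligible for naming; TDG, PCNA, EZH2 and the dim germline genes were named outside that rule, after their values were seen, as were some probe sets that disagreed with the chosen one. The members and lists were chosen with earlier results of these data known. The p-values measure the spread between samples that the labels call biological replicates. Alternatives were other filters, renewed quantile normalization, centring on the median, a trended robust variance prior, the arrays of a contrast alone, a replicate block, gene-level values and leaving out each array.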

Additional observations from a re-analysis of the deposited data

Results flagged for a closer look

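For 4 member probe sets the response to GSK126 differed between the lines in a direct test, the interaction in limma (SUP-B8 minus NALM-6). The differences were 0.58 for TET3 by 235542_at (adjusted p 0.00172) and 0.48 by 214754_at (adjusted p 0.0118), both because the level fell in NALM-6 and differed by 0.06 and 0.01 in SUP-B8. They were -0.42 for DNMT3B (adjusted p 0.0475) and -0.30 for UHRF1 (adjusted p 0.018), where NALM-6 rose and SUP-B8 differed by 0.01 and -0.07. Of all probe sets tested, 24.5% were called in this test.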

How the results depend on the processing

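Over 649 recomputed member values, none that was called changed sign, and 21 uncalled ones did. With every array kept, 283 stayed on their side of the threshold, 4 crossed to called and 10 to not called; with an array left out, 328 stayed, 6 became called and 18 lost their call. The count of member probe sets whose response differed between the lines was 4, and 2 with no filter on dim probe sets, 2 with arrays centred on their medians and 2 to 4 without 1 array. Both that remained with no filter and with centring were TET3. UHRF1 then had adjusted p 0.0584 and 0.0643, and DNMT3B 0.0876 and 0.0599; DNMT3B was also lost with renewed quantile normalization (0.0716) and in 5 of 8 omissions, UHRF1 in 4. DNMT1 in NALM-6 also lost its call with quantile normalization (-0.12, adjusted p 0.0857), and its difference of responses was called with a trended robust prior (adjusted p 0.00405). For the lines under DMSO the count was 10, and 5 when the probe sets of each gene were averaged, where 5 genes could be tested. Among list genes the SUP-B8 count was 0, and 1 with at least 4 arrays above the median and 1 with quantile normalization. The NALM-6 count of 48 became 27 to 50 without 1 array, lowest without NALM-6 GSK126 replicate 1 (27) or replicate 2 (28). The count of differing responses, 29, became 18 to 27, lowest without SUP-B8 GSK126 replicate 1 or NALM-6 GSK126 replicate 1. The cause of these shifts was not tested. Over all probe sets, the 350 SUP-B8 calls became 181 with no filter, 1206 with a trended robust prior, 146 with the 4 SUP-B8 arrays alone and 30 to 276 without 1 array. Deviations of arrays with the same replicate number were correlated at -0.19 to 0.09, so the numbers were not taken to pair the samples; with the replicate block, member calls were 0 in SUP-B8, 5 in NALM-6, 3 for the difference and 10 between lines, with DNMT1 (adjusted p 0.0557) and the DNMT3B difference (adjusted p 0.0647) not called. Probe sets below the array medians are limited by background, and for them no size is given.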
